A study of Mus musculus with 18 samples.

Results

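Erbb4 encodes a receptor tyrosine kinase for neuregulins, and its promoter window lies on mouse chromosome 1 at chr1:69153634-69155633 in the build mm9. The promoters around it are described here in nuclei of the central amygdala (CeA) and the cortex, in mice with an Erbb4 knockout (KO) in somatostatin-positive (SOM+) cells and in wild-type (WT) mice. Members were all promoter windows of chromosome 1 that start between 54150000 and 84150000, that is, within 15 Mb of Erbb4 on either side, with repeated windows kept once and Erbb4 itself left out. This gave 251 of 26065 windows, belonging to 231 genes, 121 windows on the side of lower coordinates and 130 on the side of higher coordinates. The values are ATAC-seq read counts, that is, reads from DNA that Tn5 transposase could reach, within 1 kb of each transcription start site. Of the member windows 58 overlap another window and so share reads with it, and 18 are wider than 2000 bases, up to 3795 bases.

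Tn5 inserts sequencing adapters into open chromatin, so a promoter window with many reads is one whose DNA is accessible in many of the sampled nuclei. Promoters of widely used genes are open in most cell types, whereas those of cell type genes are open in some nuclei and closed in others. Erbb4 is used by inhibitory interneurons, among them SOM+ cells, and acts there in synapse formation. A modified allele is inherited together with the DNA on either side of it, and the genes beside a targeted gene therefore travel with it through breeding. The stretch studied holds many unrelated genes, among them the gamma crystallins of the eye lens, the aldehyde oxidases, the T-cell receptors Cd28, Ctla4 and Icos, the Wnt ligands Wnt6 and Wnt10a, the neuronal genes Map2 and Epha4, and many genes of mitochondria and translation.

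All libraries came from C57BL/6J mice aged 2 to 3 months, with 50000 sorted nuclei each. Bulk nuclei, gated with a DNA stain, came from mice with Erbb4-KO in SOM+ cells (3 libraries in CeA and 3 in cortex) and from WT mice (2 libraries in CeA and 2 in cortex), none of them fear-conditioned. SOM+ nuclei with normal Erbb4, gated on a nuclear GFP, came from fear-conditioned mice and from control mice, with 2 libraries per condition in CeA and 2 in cortex. The knockout was thus made in SOM+ cells while the bulk libraries hold nuclei of every type, and fewer nuclei of a type and less open DNA per nucleus cannot be told apart in them. The sources used here do not name the driver of the knockout or the origin of its allele. The genotype field gives the KO entry for the WT libraries as well, and it is their titles that call them WT. The protocol speaks of technical replicates in the sort, so the p values measure the spread between libraries, which may be technical. The titles do not say whether libraries of the same number in CeA and cortex came from the same mice. Comparisons and counts over both regions treat these libraries as independent, and may thus count the same animals more than once.

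Promoter totals ran from 2751769 to 7939962 counts in bulk libraries and from 2648959 to 14668694 counts in SOM+ libraries, and the members took 1.29 to 1.46% of the counts in bulk libraries and 1.05 to 1.17% in SOM+ libraries. No member had 0 counts in any library, the lowest count being 3, and all 251 passed the filter on low counts. The labelled sex did not match the Y-linked reads in 4 of the 10 bulk libraries: KO 2 of both regions, labelled male, had 0 Y-linked counts, and WT 1 of both regions, labelled female, had 263 counts in CeA and 655 counts in cortex. Libraries did not sort by genotype in their correlations over all windows: cortex KO 3 was most like cortex WT 2 (0.972), cortex KO 2 most like cortex WT 1 (0.976) and CeA KO 2 most like CeA WT 1 (0.972). Cortex KO 3 correlated less with the other cortex KO libraries (0.949 and 0.960) than those did with each other (0.967). Results between KO and WT are therefore given with and without these libraries. The main fit holds the labelled sex, all KO libraries are labelled male, and of the WT libraries WT 1 is labelled female in both regions. Its log2 difference averaged over regions is thus in effect KO against WT 2, while WT 1 sets the sex term and enters the spread. In counts per 1000000 promoter counts of the library after TMM scaling (CPM), GABAergic markers summed to 231 to 287 in CeA KO libraries against 205 to 216 CPM in CeA WT libraries, glutamatergic markers to 51.0 to 64.1 CPM against 64.2 to 77.8 CPM, and microglial markers to 47.4 to 63.5 CPM against 62.6 to 79.8 CPM. CeA markers summed to 193 to 238 CPM against 174 to 179 CPM there. Somatostatin markers summed to 56.5 to 69.1 CPM in CeA KO libraries against 67.5 to 84.5 CPM in CeA WT libraries, with overlap. In cortex KO libraries they summed to 61.4 to 74.8 CPM against 64.6 to 66.3 CPM in cortex WT libraries. The other sums overlapped in cortex as well, with 89.3 to 113 against 97.1 to 105 CPM for GABAergic, 202 to 211 against 184 to 237 CPM for glutamatergic and 52.5 to 63.4 against 48.4 to 71.3 CPM for microglial markers. The fit with its sex term gave microglial markers a median log2 difference of the other sign in CeA, 0.12. No marker of these lists was called between KO and WT, no marker of another cell type was at 0 counts in any library, and their part in the results below was not tested.

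Among promoters matched to an entry of the RefSeq promoter table, those with the smallest p between KO and WT differ in base composition. The p is that of the comparison averaged over regions. Myl1, which has a pair of windows, was not matched and is not shown. The promoters below are shown for their small p, although no member was called between KO and WT with all libraries. Each is given as the 250 bases before the transcription start in GRCm38.p6, on the gene's own strand and 5′ to 3′. Their coordinates belong to that build and not to the windows in mm9. Capitals mark the GC box GGGCGG, here always found on the opposite strand and so read as its reverse complement.
Acadl, chr1:66863310-66863559, - strand: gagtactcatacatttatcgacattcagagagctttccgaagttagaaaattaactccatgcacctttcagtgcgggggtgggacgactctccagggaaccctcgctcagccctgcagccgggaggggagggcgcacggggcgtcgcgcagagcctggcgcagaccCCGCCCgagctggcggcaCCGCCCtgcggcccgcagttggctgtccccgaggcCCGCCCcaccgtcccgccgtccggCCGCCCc
Bzw1, chr1:58392648-58392897, + strand: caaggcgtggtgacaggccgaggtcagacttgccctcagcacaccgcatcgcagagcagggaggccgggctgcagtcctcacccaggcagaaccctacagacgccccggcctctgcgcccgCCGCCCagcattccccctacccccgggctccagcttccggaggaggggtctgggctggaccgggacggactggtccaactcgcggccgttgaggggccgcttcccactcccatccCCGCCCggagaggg
Mrpl44, chr1:79775768-79776017, + strand: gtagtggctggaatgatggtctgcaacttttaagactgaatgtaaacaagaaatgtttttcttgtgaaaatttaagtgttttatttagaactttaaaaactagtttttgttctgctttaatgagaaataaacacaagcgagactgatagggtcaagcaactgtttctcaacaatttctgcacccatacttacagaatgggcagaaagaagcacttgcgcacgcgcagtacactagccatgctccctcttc
Gm13749, chr1:63964477-63964726, + strand: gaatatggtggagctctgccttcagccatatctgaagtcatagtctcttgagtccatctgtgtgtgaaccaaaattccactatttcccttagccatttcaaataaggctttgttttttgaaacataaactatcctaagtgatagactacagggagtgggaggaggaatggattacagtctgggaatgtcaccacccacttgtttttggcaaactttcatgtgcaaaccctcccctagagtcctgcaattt
Acadl had 4 GC boxes, at 84, 66, 31 and 7 bases before the start, with a GC content of 68% and 25 CpG. Bzw1 had 2 GC boxes, at 129 and 14 bases before the start, with a GC content of 71.6% and 20 CpG. The Mrpl44 stretch held no match, with a GC content of 38% and 4 CpG, and neither did that of Gm13749, with 42.4% and 0 CpG.

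An entry of this table could be matched for 152 of the 251 members, those with 1 window and 1 entry. GGGCGG was found on either strand in 46.1% of these member promoters, against 32.7% of all 32851 promoters of the table. The TATA box TATAAA was found in 6.58% of member promoters against 12.4% of all, the CCAAT box CCAAT in 27% against 33.8%, and TGACG, the core of a cAMP response element, in 28.3% against 17.8%. All were searched on both strands, and none contains another. The median GC content was 58.4% for members against 52.4% for all promoters. GC boxes went with accessibility: 71.9% of the 57 matched members over 60 CPM held one, against 47.4% of 38 members at 20 to 60 CPM, 22.9% of 48 members at 5 to 20 CPM and 0 of 9 members under 5 CPM. A match describes letters in the window and not a bound site.

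By their mean over all libraries, 87 members exceeded 60 CPM, 55 lay at 20 to 60 CPM, 92 at 5 to 20 CPM and 17 under 5 CPM. The median member had 30.7 CPM in bulk libraries, against 20.4 CPM for all windows and 25.2 CPM for the rest of chromosome 1, and 22.5 CPM in SOM+ libraries, against 21.6 CPM for all windows. The most accessible members were Creb1, the transcription factor that responds to cAMP and calcium, with a mean of 217 CPM, Dnpep, an aspartyl aminopeptidase, with 207 CPM, and Fam117b with 207 CPM. The least accessible were the non-coding Pinc, with 3.60 CPM, and Cps1, the first enzyme of the urea cycle in liver, with 3.71 CPM.

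The genes of the stretch were sorted into 10 groups by known role, which hold 157 windows of 142 genes. Levels are given over the 10 bulk libraries (mean ± SD). Among regulators of transcription, Creb1 averaged 240.3 ± 36.8 CPM and Klf7, a Krüppel-like factor of neuronal outgrowth, 222 ± 28.2 CPM. Among neuronal genes, Abi2, an adaptor of actin branching, averaged 118 ± 17.2 CPM. Trak2, which ties mitochondria to motors and whose window overlaps that of Stradb, averaged 116 ± 14.4 CPM. Mitochondrial members were open as well, with 181 ± 35.3 CPM at Coq10b, which serves coenzyme Q, and 162 ± 17.8 CPM at Hspd1. Hspd1 encodes the mitochondrial chaperonin, and its window overlaps that of Hspe1, its co-chaperonin. In RNA processing and translation, the ribosome biogenesis gene Wdr12, whose window overlaps that of Carf, averaged 139 ± 19.6 CPM, and the splicing factor Sf3b1 98.4 ± 13.3 CPM. In protein turnover, Cul3, the scaffold of a ubiquitin ligase, averaged 142 ± 22.97 CPM, and in growth factor signalling Irs1, the insulin receptor substrate, 152 ± 42.4 CPM. Genes of other tissues were less open: the lens crystallins Cryga had 6.72 ± 1.67 CPM and Cryge 6.42 ± 1.85 CPM, and the aldehyde oxidases, nearer to the median member, had 26.4 ± 6.92 CPM at Aox3 and 25.2 ± 10.7 CPM at Aox4. These SDs span both genotypes and both regions.

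Erbb4 did not pass the test between KO and WT at its promoter, which a deletion inside the gene need not touch and which is no check of the genotype. Its window had 39.1, 28.8 and 32.9 CPM in CeA and 26.05, 36.6 and 41.1 CPM in cortex, against 35.6 and 37.4 CPM in CeA WT and 33.3 and 45.8 CPM in cortex WT, and the ranges overlap in both regions. The log2 difference averaged over regions, KO over WT, was -0.27 ± 0.19 (SE). SOM+ libraries, with normal Erbb4, had 15.9 to 27.3 CPM with a median of 22.8 CPM over the 8 SOM+ libraries. Of the bulk libraries, cortex KO 1 alone lay within the SOM+ range. The difference between SOM+ control and bulk WT was -0.92 ± 0.17, with an adjusted p of 1.18e-05 by edgeR.

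Between KO and WT, no member passed an adjusted p of 0.05 in edgeR's quasi-likelihood test or in DESeq2, in CeA, in cortex, averaged over both regions or in the difference between regions, and the edgeR background was 0% of the 25196 windows tested in each. At an unadjusted p under 0.05 the averaged comparison gave 14 members (5.58%), against a background of 3.46%, with 12 lower in KO (4.78%, background 1.25%) and 2 higher (0.797%, background 2.21%). In CeA there were 13 such members (5.18%, background 2.96%), 11 of them lower in KO (background 1.51%) and 2 higher (background 1.45%). Cortex had 7 (2.79%, background 3.27%), all lower in KO (background 0.917% lower and 2.35% higher). The difference between regions gave 8 (3.19%, background 2.34%), with 6 lower in CeA (background 1.84%) and 2 higher (background 0.504%). Although no call was made, members held ranks 1, 2 and 4 of all 25196 windows by p in the averaged comparison. These were Acadl, Bzw1 and Myl1, all lower in KO.

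Acadl encodes the long-chain acyl-CoA dehydrogenase of mitochondrial fatty acid oxidation, and its window chr1:66908884-66910883 lies 2.24 Mb from Erbb4 toward lower coordinates. The KO libraries had 19.2, 21.6 and 22.04 CPM in CeA and 18.3, 17.8 and 27.7 CPM in cortex, against 38.3 and 37.1 CPM in CeA WT and 38.6 and 43.7 CPM in cortex WT. Every KO library lay below every WT library, in both regions. The log2 difference was -0.85 ± 0.24 in CeA (SE), -0.997 ± 0.24 in cortex and -0.92 ± 0.19 on average, at rank 1 by p with an adjusted p of 0.9996 by edgeR. SOM+ nuclei with normal Erbb4 had 4.59 to 18.1 CPM with a median of 13.5 CPM over the 8 SOM+ libraries, in part overlapping the KO range and wholly below the WT range.

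Bzw1, which encodes a regulator of translation initiation, lies 10.7 Mb from Erbb4 on the same side, at chr1:58448980-58450979. Its KO libraries had 56.3, 54.7 and 53.9 CPM in CeA and 44.6, 58.2 and 60.6 CPM in cortex, against 82.8 and 84.4 CPM in CeA WT and 73.5 and 95.5 CPM in cortex WT. Again all 6 KO libraries were below all 4 WT libraries. The log2 difference was -0.68 ± 0.20 in CeA, -0.72 ± 0.19 in cortex and -0.70 ± 0.15 on average (rank 2, adjusted p of 0.9996 by edgeR). In SOM+ nuclei Bzw1 stood higher than in the KO libraries, with 77.3 to 131 CPM with a median of 103 CPM over the 8 SOM+ libraries.

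Myl1 encodes an essential light chain of skeletal muscle myosin and has a pair of windows in the data. The one at chr1:66980941-66982940, 2.17 Mb from Erbb4, had 8.14, 8.18 and 7.21 CPM in CeA KO libraries against 13.5 and 23.2 CPM in CeA WT libraries, with no overlap. In cortex it had 19.9, 18.5 and 38.2 CPM in cortex KO libraries against 28.1 and 37.8 CPM in cortex WT libraries, where KO 3 was level with the higher WT library and the groups overlap. The log2 difference was -1.42 ± 0.33 in CeA, the smallest p of all windows there (adjusted p of 0.999 by edgeR), -0.67 ± 0.30 in cortex and -1.04 ± 0.24 on average. The other window was low everywhere and averaged 4.90 ± 1.42 CPM in KO and 5.28 ± 2.82 CPM in WT (SD, 6 and 4 libraries), whereas the fit with its sex term gave an average log2 difference of the other sign, 0.79 ± 0.46.

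Next by p on average came Mrpl44, Gm13749 and Bard1. Mrpl44, a protein of the large mitochondrial ribosomal subunit whose window lies 10.6 Mb away toward higher coordinates, had 33.3, 39.01 and 34.3 CPM in CeA KO libraries against 45.2 and 50.7 CPM in CeA WT libraries, without overlap, and 50.04, 70.8 and 93.2 CPM in cortex KO libraries against 81.1 and 106 CPM in cortex WT libraries, with overlap. Its average log2 difference was -0.53 ± 0.18 (rank 86). Gm13749, a predicted gene 5.14 Mb away on the lower side, had 5.43, 7.05 and 7.21 CPM in CeA KO libraries against 11.3 and 12.9 CPM in CeA WT libraries, without overlap. Its cortex values, 41.8, 32.9 and 34.7 CPM in cortex KO libraries against 34.2 and 43.9 CPM in cortex WT libraries, overlap, and the average difference was -0.61 ± 0.21 (rank 87). Bard1, the partner of BRCA1 in DNA repair, lies 1.99 Mb away on the higher side and had 44.04, 35.5 and 40.3 CPM in CeA and 47.8, 70.6 and 133 CPM in cortex, against 38.9 and 63.2 CPM in CeA WT and 86.6 and 139.8 CPM in cortex WT. Cortex KO 3 lay close to the higher WT library there and the groups overlap in both regions, with an average difference of -0.69 ± 0.23 (rank 88).

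**Figure D1:**
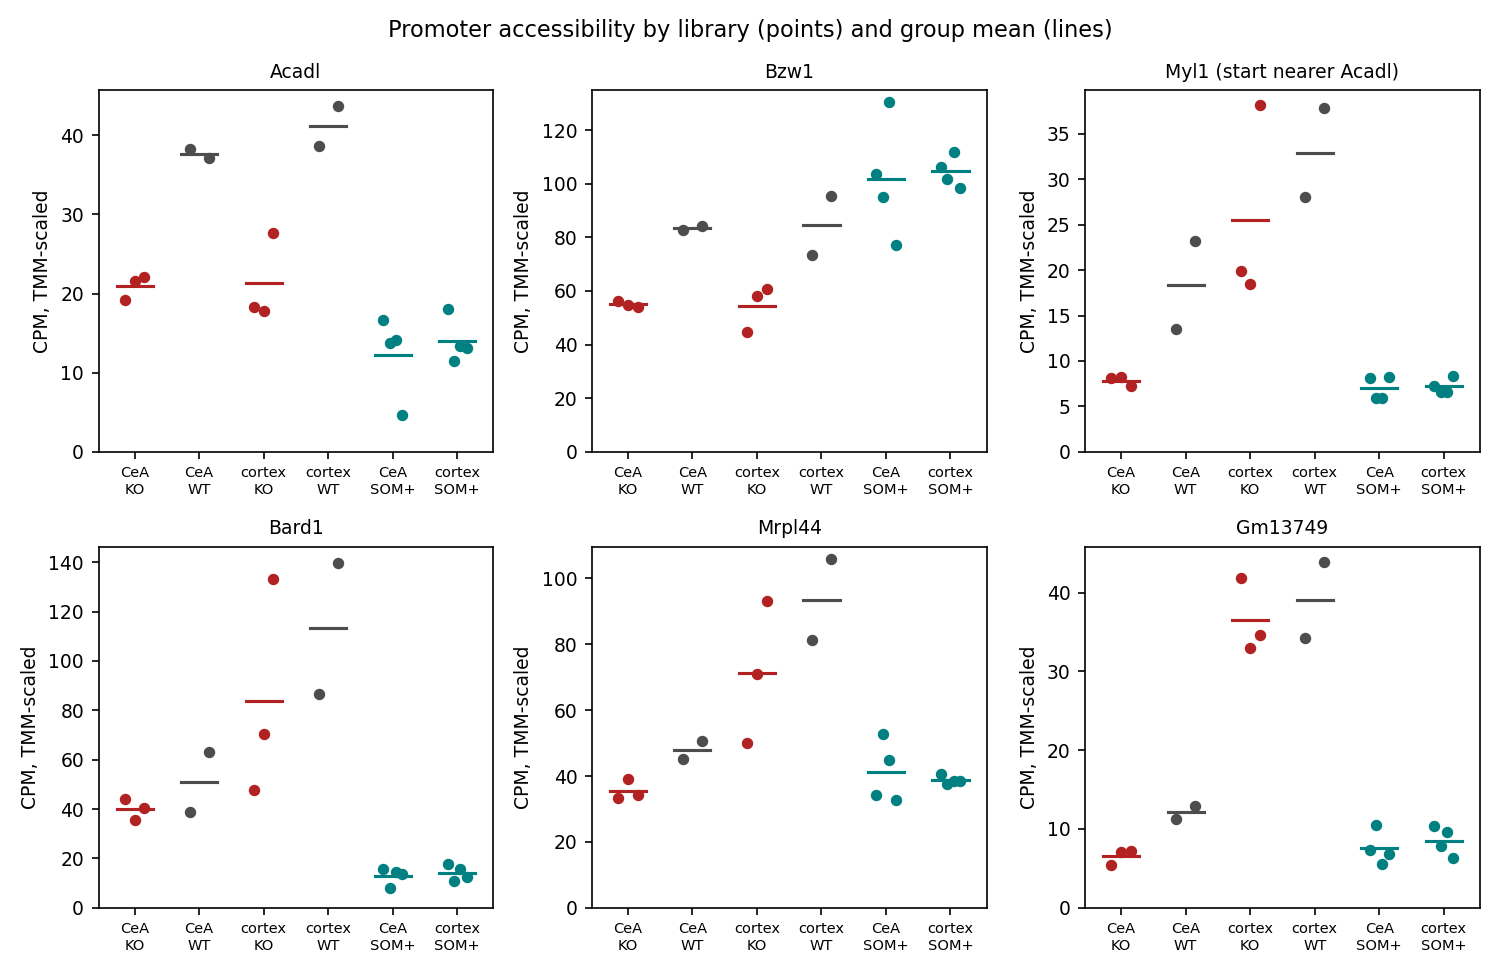
TMM-scaled CPM (vertical axis) of the Acadl, Bzw1, Myl1, Bard1, Mrpl44 and Gm13749 windows in every library, with KO left of WT in CeA and in cortex, the SOM+ libraries beside them, a point per library and a bar at each group mean. The 6 KO points of Acadl, 17.8 to 27.7 CPM, and of Bzw1, 44.6 to 60.6 CPM, lie below the 4 WT points, whereas Myl1 and Bard1 overlap in cortex through KO 3.

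Of the 5 nearest genes on either side, Acadl, Myl1 and Bard1 are described above. The nearest member is Ikzf2, the zinc finger factor Helios, 0.578 Mb away toward higher coordinates, with 25.2, 12.96 and 11.8 CPM in CeA and 18.9, 15.6 and 24.6 CPM in cortex, against 17.6 and 18.2 CPM in CeA WT and 17.04 and 20.9 CPM in cortex WT and an average log2 difference of -0.10 ± 0.27. Spag16, a protein of the sperm axoneme, has windows at 0.719 and 0.844 Mb, with average log2 differences of 0.35 ± 0.32 and 0.26 ± 0.35. Vwc2l, a secreted protein of the nervous system at 1.62 Mb, had 41.8, 28.4 and 43.9 CPM in CeA and 32.2, 58.2 and 107 CPM in cortex, against 31.6 and 47.02 CPM in CeA WT and 58.2 and 92.3 CPM in cortex WT, overlapping in both regions (-0.39 ± 0.27). Abca12, a lipid transporter of skin at 2.31 Mb, had a difference of 0.02 ± 0.34. On the lower side a gap of 1.99 Mb without members, the largest of the stretch, separates Erbb4 from Cps1, which had a difference of -0.14 ± 0.54. Lancl1, which binds glutathione, lies 2.07 Mb away and had -0.20 ± 0.17, and Kansl1l, 2.29 Mb away, had -0.22 ± 0.19, both with overlapping groups. Myl1 and Acadl, described above, lie between Lancl1 and Kansl1l.

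**Figure D2:**
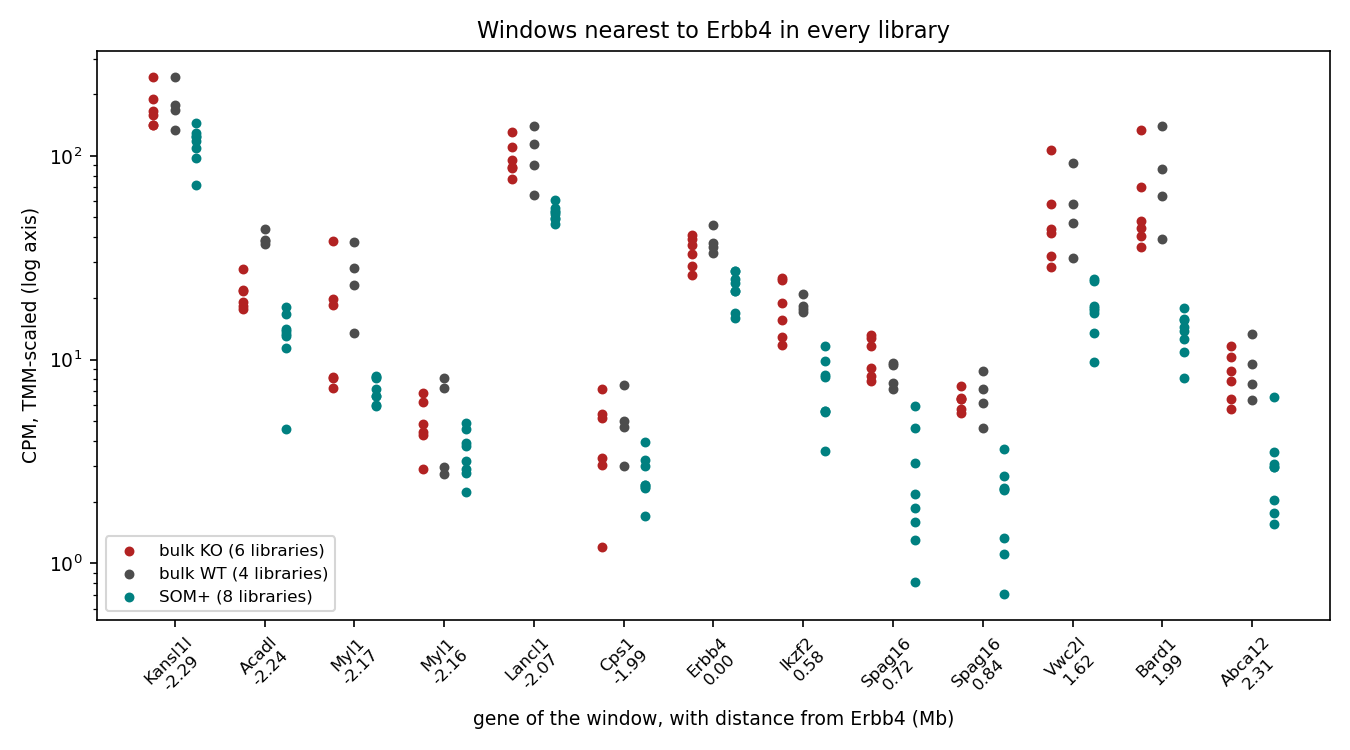
TMM-scaled CPM on a log axis for the 5 nearest genes on either side of Erbb4 and for Erbb4 itself, in the order of the chromosome, with 6 KO points, 4 WT points and 8 SOM+ points per window. KO and WT points are mixed at Ikzf2, Cps1, Lancl1 and Kansl1l, while the Acadl KO points lie below the WT points.

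By distance, the 57 windows within 5 Mb of Erbb4 had a median log2 difference, averaged over regions, of -0.13, with 39 of them lower in KO, and 6 (10.5%) at an unadjusted p under 0.05. Of these 6, Acadl, Myl1, Bard1, Mreg and Plekhm3 were lower in KO and Akr1cl, an aldo-keto reductase relative, was higher. Akr1cl had 6.79, 5.29 and 10.2 CPM in CeA KO and 8.05, 2.91 and 5.04 CPM in cortex KO libraries, against 7.15 and 3.64 CPM in CeA WT and 4.52 and 2.53 CPM in cortex WT libraries, overlapping in both regions, with an average log2 difference of 1.05 ± 0.48, the highest of all members. The 119 windows at 5 to 10 Mb had a median of -0.01 with 4 such windows (3.36%), and the 75 windows at 10 to 15 Mb a median of -0.09 with 4 (5.33%). The background of unadjusted p under 0.05 was 3.46%. Over all 251 members the median was -0.07, against 0.01 for all windows, but the rest of chromosome 1 had -0.06, and the share below 0 was 61% of members, 62.4% of the rest of chromosome 1 and 48% of all windows. The lower median is thus shared by the chromosome outside the 15 Mb. It also moved with the libraries and the sex term: the member median was 0.01 without a sex term and 0.04 with sex taken from Y-linked reads, -0.03 without KO 2 and WT 1, -0.15 without cortex KO 3, and -0.12 without CeA WT 2 and also with a replicate block. Within 5 Mb, the median was -0.01 without a sex term (30 of 57 windows below 0) and 0.01 with sex from Y-linked reads (25 of 57), against -0.25 without cortex KO 3 (45 of 57) and -0.27 with a replicate block (46 of 57).

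**Figure D3:**
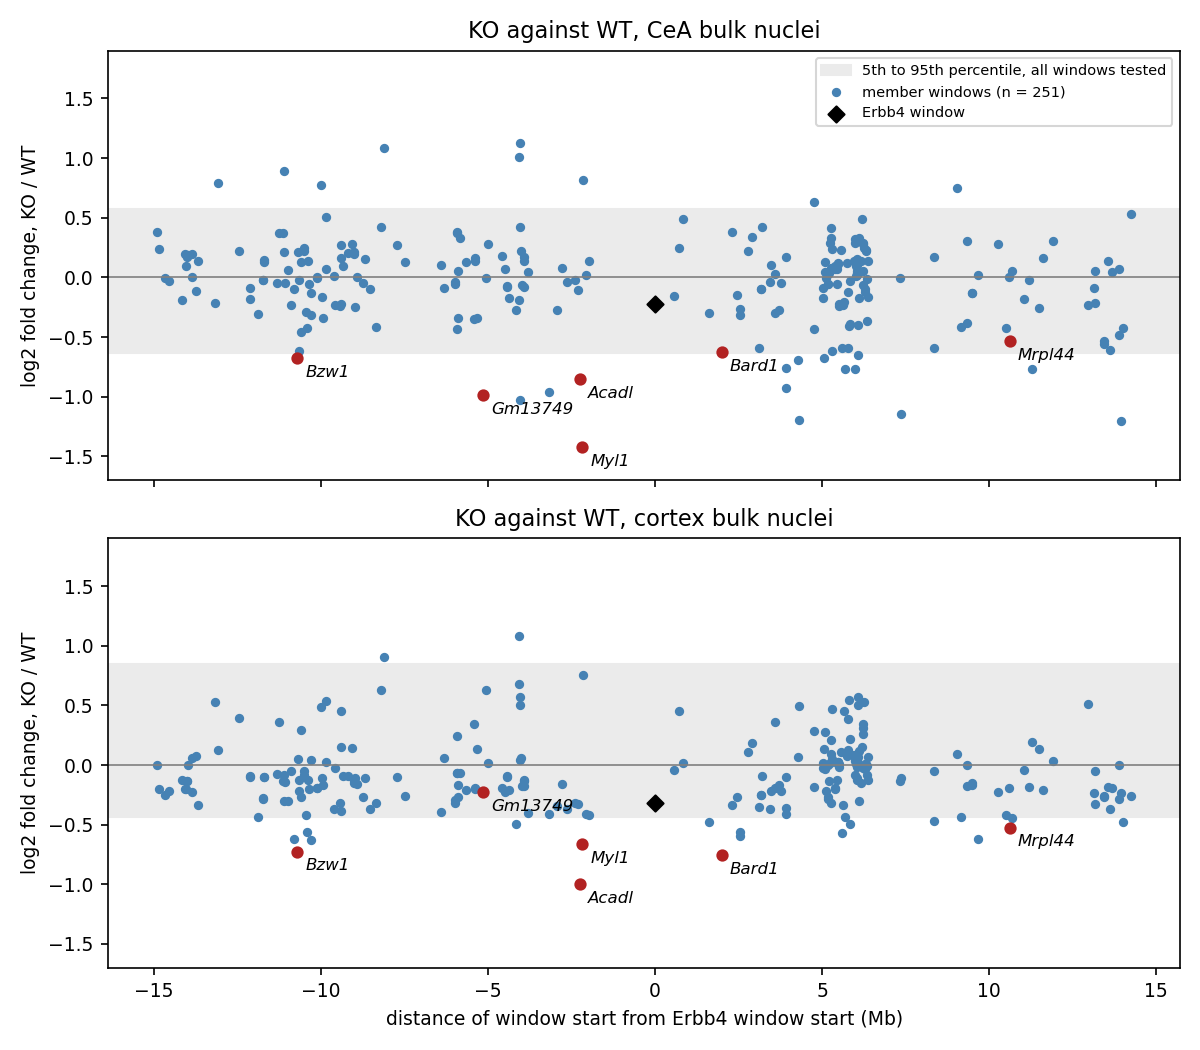
Log2 difference of KO over WT (vertical axis) against the distance from Erbb4 in Mb (horizontal axis), for CeA and for cortex, with a point per member, a diamond at Erbb4 and a grey band from the 5th to the 95th percentile of all windows tested. Acadl and Myl1 lie below the band at about the same distance and Bzw1 below it near the lower end, while most members lie inside it.

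Separation of KO and WT libraries without overlap was counted for each window. In CeA alone KO was lower at 45 members (17.9%, background 14.8%) and higher at 48 (19.1%, background 13.9%), and in cortex alone lower at 13 (5.18%, background 4.14%) and higher at 8 (3.19%, background 6.73%). In both regions at once, 9 members (3.59%) were lower in KO, against a background of 0.972%, and 2 (0.797%) were higher, against 1.3%. All 6 KO libraries lay below all 4 WT libraries at 4 members (1.59%, background 0.341%), namely Bzw1, Acadl, Prkag3 and Mir6352, and above them at 2 (0.797%, background 0.321%), Icos and Speg. These names were chosen after their values were seen. Prkag3, a muscle subunit of AMP-activated kinase, had 10.7, 9.69 and 12.02 CPM in CeA and 8.74, 10.5 and 10.1 CPM in cortex, against 13.8 and 12.6 CPM in CeA WT and 12.5 and 12.7 CPM in cortex WT, and its average log2 difference of -0.28 ± 0.25 is close to its SE. Mir6352 had 10.7, 7.68 and 6.81 CPM in CeA and 10.3, 10.05 and 5.81 CPM in cortex, against 13.5 and 13.2 CPM in CeA WT and 12.97 and 12.04 CPM in cortex WT (-0.53 ± 0.29). The other members lower in both regions, though not across them, were Casp8, Zdbf2, Cyp27a1, Wnt10a and Ihh. Of these Cyp27a1, the sterol 27-hydroxylase, had 8.30, 9.31 and 8.01 CPM in CeA and 8.23, 10.05 and 13.2 CPM in cortex, against 12.3 and 15.2 CPM in CeA WT and 18.1 and 13.5 CPM in cortex WT (-0.58 ± 0.27), and Wnt10a, a Wnt ligand, 8.45, 10.9 and 5.01 CPM in CeA and 14.7, 15.9 and 8.72 CPM in cortex, against 12.6 and 15.2 CPM in CeA WT and 17.04 and 17.1 CPM in cortex WT (-0.60 ± 0.29).

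In the other direction, Icos, a costimulatory receptor of T cells, had 6.18, 7.42 and 6.41 CPM in CeA and 7.88, 7.63 and 5.81 CPM in cortex, against 3.16 and 3.97 CPM in CeA WT and 4.98 and 3.17 CPM in cortex WT, with an average log2 difference of 0.99 ± 0.41 (unadjusted p of 0.0234 by edgeR). The Speg window chr1:75381185-75383184, of a muscle kinase, had 32.4, 32.97 and 34.3 CPM in CeA and 33.4, 39.95 and 33.3 CPM in cortex, against 28.1 and 28.1 CPM in CeA WT and 28.96 and 28.7 CPM in cortex WT (0.29 ± 0.18). Both differences fail the adjustment over all windows, with an adjusted p of 0.9996. Icos values rest on few reads, since 3 counts are worth 0.378 to 1.09 CPM in the bulk libraries. The KO differences with the smallest p for unequal effects between CeA and cortex were those of Crygd, a lens crystallin (-1.52 ± 0.56, CeA minus cortex), the non-coding Pinc (-1.69 ± 0.62) and Mir6343 (-1.03 ± 0.40), each with an adjusted p of 0.968 by edgeR. Mir6343 had 5.58, 3.27 and 7.81 CPM in CeA KO libraries against 8.98 and 12.3 CPM in CeA WT libraries, and in cortex 32.05, 30.3 and 39.5 CPM in cortex KO libraries against 26.5 and 36.7 CPM in cortex WT libraries.

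By role, none of the 10 groups had a member called between KO and WT, and their averaged log2 differences were as follows. In growth factor, Wnt and adhesion signalling 18 of 20 windows were below 0 with a median of -0.18, and between 14 and 19 of 20 were below 0 under other scalings, sex terms and without cortex KO 3. In mitochondrion and metabolism 20 of 28 windows were below 0 with a median of -0.09, but 8 of 28 without a sex term, where the median was 0.05. The 4 windows of the aldehyde oxidases were all below 0, and 2 of 4 without a sex term. The neuronal structure, guidance and secretion group had 16 of 26 below 0 and 8 of 26 without a sex term. The muscle and cilium group had 5 of 15 below 0 and a median of 0.17, and -0.02 without a sex term. It holds Mreg, melanoregulin, which handles melanosomes. In all windows tested 48% were below 0 on average, and an unadjusted p under 0.05 was reached by 3 of 28 mitochondrial windows (Acadl, Mrpl44 and Cyp27a1) and by 0 of 20 of the growth factor group.

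Cortex KO 3 decided how many members were called. Without cortex KO 3, 7 members were called on average over regions, all lower in KO (2.79%, background 0.496%). They were Bard1 (-0.95, rank 1 of all windows), Acadl (-1.06, rank 2), Myl1 (-1.26, rank 3), Bzw1 (-0.76, rank 8), Mrpl44 (-0.67, rank 39), Vwc2l (-0.67, rank 69) and Mreg (-0.65, rank 90), with adjusted p of 0.000147 to 0.0406 by edgeR. In cortex alone 8 were called (3.19%, background 3.91%), the same 7 and Rhbdd1, a rhomboid protease, and in CeA Myl1, the 1 window called of all. The background at an unadjusted p under 0.05 was then 12.8%, against 13.1% of members. Of these 33 members 31 were lower in KO, while 8.57% of all windows were lower at that p. No label sets cortex KO 3 apart.

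Taking sex from Y-linked reads instead of the labels left Acadl at -0.84 and Bzw1 at -0.63, and leaving out KO 2 and WT 1 of both regions left them at -0.88 and -0.73. Myl1 changed more, to -0.66 with sex from Y-linked reads, and Bard1 most, to -0.28. Without a sex term, where WT 1 counts beside WT 2, Acadl had -0.89, Bzw1 -0.60, Myl1 -0.77 and Bard1 -0.37. Without cortex WT 2, Acadl fell to rank 78 and Bzw1 to rank 274. No member was called under any of these settings.

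SOM+ nuclei were called different from bulk nuclei at about the same share of members as of all windows, with fewer members higher and more lower. Between SOM+ control and bulk WT, 149 of 251 members were called (59.4%, background 61.1%), 32 higher in SOM+ (12.7%, background 30.6%) and 117 lower (46.6%, background 30.6%). The median log2 difference was -0.41 for members, -0.07 for all windows and -0.28 for the rest of chromosome 1. Within 5 Mb of Erbb4 none of 57 windows was called higher and 41 were called lower. This was not particular to the nearest windows. At 5 to 10 Mb, 24 of 119 windows were called higher and 31 lower, and at 10 to 15 Mb 8 of 75 higher and 45 lower. On the side of higher coordinates at 10 to 15 Mb, 0 of 25 windows were called higher and 24 lower. The split moved with the method: scaling by total counts gave 14 higher and 147 lower (64.1% called, background 61.5%), with the median of all windows at -0.27. Under limma with cyclic loess, which changes scaling and test together, 24 were higher and 130 lower (61.4% called, background 57%). Without KO 2 and WT 1 of both regions there were 11 higher and 95 lower (42.2% called, background 43.9%). All 5 GABAergic markers and 2 of 4 somatostatin markers were called higher in SOM+ nuclei, and 5 of 5 glutamatergic, 5 of 6 astrocyte, 5 of 7 oligodendrocyte and 3 of 6 microglial markers lower. This comparison averages the regions. Somatostatin markers summed to 236 to 250 CPM in cortex SOM+ control libraries against 64.6 to 66.3 CPM in cortex bulk WT libraries. In CeA they were not higher, with 62.8 to 74.8 CPM in SOM+ control libraries against 67.5 to 84.5 CPM in bulk WT libraries. The ratio of the median count at ribosomal protein promoters to that at olfactory receptor promoters, a sign of library enrichment, was 25.3 to 71.5 in SOM+ control libraries against 9.57 to 15.6 in bulk WT libraries. The part of these cell types and of enrichment in the members' differences was not tested.

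Members lower in SOM+ nuclei included Bard1, the aldehyde oxidases and Igfbp2. Bard1 had 15.6, 8.09, 17.8 and 10.9 CPM in the SOM+ control libraries against 38.9, 63.2, 86.6 and 139.8 CPM in the bulk WT libraries, a log2 difference of -2.53 ± 0.21 (SE, adjusted p of 2.92e-12 by edgeR). Aox1, an aldehyde oxidase, had 5.79, 4.31, 6.02 and 3.78 CPM in the SOM+ control libraries against 21.6, 28.5, 30.5 and 26.6 CPM in the bulk WT libraries (-2.42 ± 0.22), and Aox2, Aox3 and Aox4 were called lower as well. Igfbp2, a carrier of insulin-like growth factors, had 11.7, 10.2, 9.03 and 7.67 CPM in the SOM+ control libraries against 25.9, 29.8, 30.5 and 37.8 CPM in the bulk WT libraries (-1.68 ± 0.19). None of these groups of 4 and 4 overlap. Such separation with SOM+ control lower was found at 81 members (32.3%, background 18.7%), and with SOM+ control higher at 14 (5.58%, background 19.6%).

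The members called higher in SOM+ nuclei lay at 5 Mb or more from Erbb4, apart from 1 window within 5 Mb called under limma with cyclic loess. Ica1l, a relative of a protein of secretory granules, had 120.1, 80.1, 96.97 and 84.6 CPM in the SOM+ control libraries against 36.9, 34.4, 44.6 and 39.1 CPM in the bulk WT libraries, a log2 difference of 1.28 ± 0.15 (adjusted p of 1.48e-09 by edgeR). Mpp4, a scaffold of cell junctions, had 108, 85.5, 145 and 137 CPM in the SOM+ control libraries against 44.6, 63.6, 53.8 and 77.1 CPM in the bulk WT libraries (0.99 ± 0.15), and Fam117b had 295, 242, 264 and 273 CPM in the SOM+ control libraries against 143, 161, 143 and 164 CPM in the bulk WT libraries (0.82 ± 0.15). The window of Carf, a calcium-responsive transcription factor, which overlaps that of Wdr12, was higher by 0.84 ± 0.15. By role, 7 of 20 windows of transcription and chromatin regulators were called higher and 5 lower, and 4 of 13 of the ubiquitin, autophagy and DNA repair group higher and 1 lower, but total counts gave 1 and 8 for the transcription group, and 1 and 3 for the ubiquitin group. Lower calls prevailed in the growth factor, Wnt and adhesion signalling group (14 of 20, with 2 higher), in mitochondrion and metabolism (12 of 28, with 4 higher) and in the aldehyde oxidases (4 of 4), and did so under each scaling. Of matched promoters, 78.9% of the 19 called higher held a GC box, against 42.1% of the 76 called lower and 40.4% of the 57 not called.

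**Figure D4:**
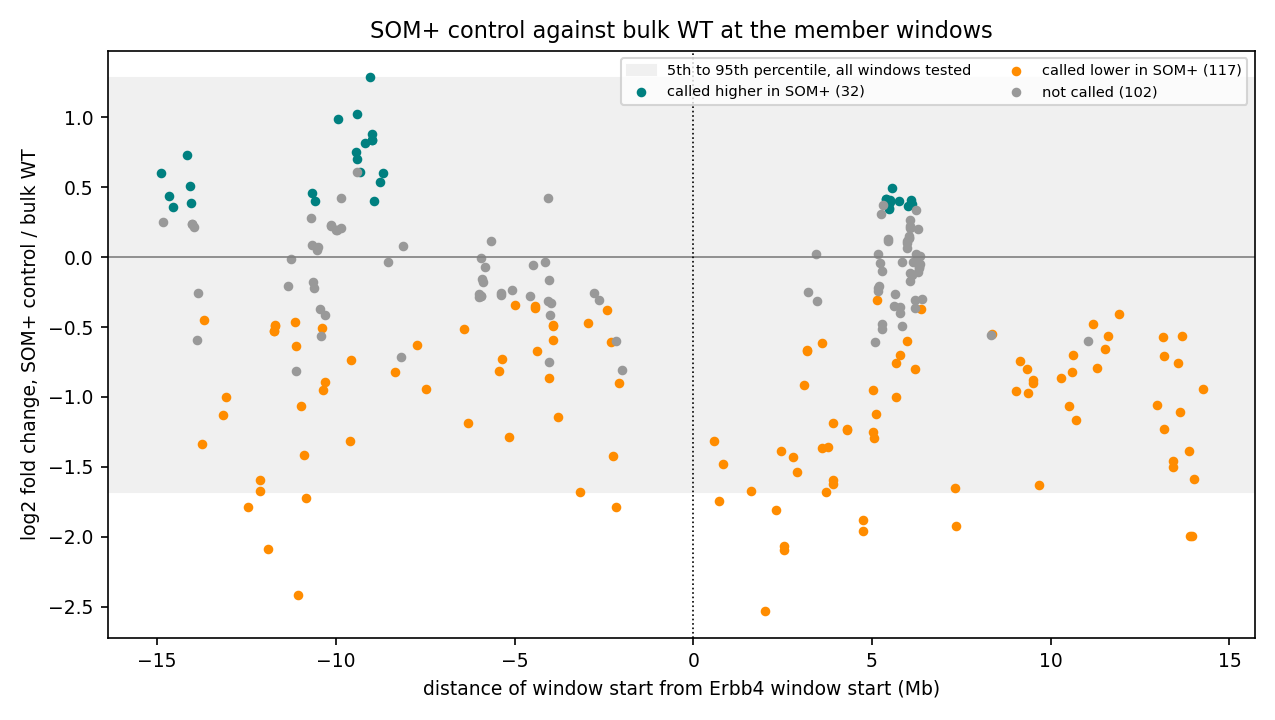
Log2 difference of SOM+ control over bulk WT (vertical axis) against the distance from Erbb4 in Mb (horizontal axis), with a point per member coloured by its call. The 32 members called higher lie farther than 5 Mb from Erbb4. Of the 57 windows within 5 Mb 41 were called lower, and of the 75 windows at 10 to 15 Mb 45.

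Between the regions, SOM+ nuclei gave 71 called members (28.3%, background 48.3%), 35 higher in CeA (13.9%, background 21.1%) and 36 lower (14.3%, background 27.1%). Total counts gave 61 higher and 22 lower (33.1% called, background 51.1%), with the median of all windows at 0.26 instead of 0.04. With limma and cyclic loess 44 were higher and 24 lower (27.1% called, background 42%). The enrichment ratio was 17.4 to 34.8 in CeA SOM+ libraries against 50.4 to 71.5 in cortex SOM+ libraries, and somatostatin markers summed to 62.8 to 74.8 CPM against 229 to 252 CPM. Their part in the differences was not tested. The window of Dock10, an activator of small GTPases, at chr1:80754129-80756128 had 55.5, 56.6, 58.2 and 44.9 CPM in CeA SOM+ libraries against 19.7, 15.1, 26.01 and 12.9 CPM in cortex SOM+ libraries, a log2 difference of 1.58 ± 0.15 (SE, adjusted p of 1.75e-22 by edgeR). Its other window was also higher (1.63 ± 0.23). Serpine2, an inhibitor of thrombin and related proteases, had 37.2, 25.1, 39.2 and 41.3 CPM in CeA SOM+ libraries against 17.3, 9.20, 17.2 and 9.32 CPM in cortex SOM+ libraries (1.44 ± 0.17), and the ephrin receptor Epha4 52.7, 56.9, 46.1 and 46.2 CPM in CeA SOM+ libraries against 34.1, 21.8, 22.2 and 26.2 CPM in cortex SOM+ libraries (0.99 ± 0.15). Lower in CeA were Ttll4, a tubulin polyglutamylase, with 30.7, 39.6, 32.4 and 24.9 CPM in CeA SOM+ libraries against 59.8, 74.6, 65.03 and 65.5 CPM in cortex SOM+ libraries (-1.02 ± 0.15), the kinase Cdk15 (-1.31 ± 0.20), Mreg (-1.08 ± 0.17) and Ctdsp1, a phosphatase that helps to silence neuronal genes (-0.93 ± 0.15). The 4 CeA and 4 cortex libraries of these windows do not overlap, as was found with CeA lower at 44 members (17.5%, background 27.7%) and with CeA higher at 23 (9.16%, background 15.9%).

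In bulk nuclei 43 members were called between regions (17.1%, background 16.9%), 4 higher in CeA (1.59%, background 6.9%) and 39 lower (15.5%, background 9.98%). Of the markers, 4 of 5 glutamatergic ones were called lower in CeA (sums of 51.0 to 77.8 CPM in CeA libraries against 184 to 237 CPM in cortex libraries) and 3 of 5 GABAergic ones higher (205 to 287 CPM against 89.3 to 113 CPM), and their part in the differences was not tested. Gm13749 had 5.43, 7.05, 7.21, 11.3 and 12.9 CPM in CeA bulk libraries against 41.8, 32.9, 34.7, 34.2 and 43.9 CPM in cortex bulk libraries, a log2 difference of -2.06 ± 0.16 (SE, adjusted p of 5.24e-08 by edgeR). Mir6343 was lower too (-2.09 ± 0.20). Higher in CeA were Gm973 with 31.1, 22.1, 27.8, 22.6 and 33.4 CPM in CeA bulk libraries against 15.3, 16.6, 15.9, 12.1 and 15.6 CPM in cortex bulk libraries (0.90 ± 0.16), and with less certainty the crystallin Crygb (1.02 ± 0.30), the acid-sensing channel Asic4 (0.55 ± 0.17) and A630095N17Rik (0.89 ± 0.28), whose calls were each lost without CeA WT 1, CeA WT 2, CeA KO 3, cortex WT 1 or cortex WT 2. All 5 CeA libraries lay below all 5 cortex libraries at 20 members (7.97%, background 5.48%) and above them at 4 (1.59%, background 4.64%). The number of members called depends on the libraries: it was 14 (5.58%, background 2.56%) without KO 2 and WT 1 of both regions and 27 (10.8%, background 7.25%) without KO 2. It was 17 (6.77%, background 5.6%) without CeA WT 1 and 18 (7.17%, background 3.52%) without CeA WT 2. Without cortex WT 1 and without cortex WT 2 it was 18 each (7.17%, background 5.44% and 3.54%).

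Few members differed between regions in both kinds of nuclei. Of 251 members, 150 were called in neither, 58 in SOM+ nuclei alone, 30 in bulk nuclei alone and 13 in both. Of the 13, 9 (3.59%, background 2.64%) were lower in CeA in both, 1 (0.398%, background 1.59%), Gm973, was higher in both and 3 (1.2%, background 5.38%) went opposite ways. Mreg was lower in both, with -1.08 ± 0.17 in SOM+ nuclei and -1.15 ± 0.17 in bulk nuclei, as was Raph1, which binds actin regulators (-0.40 ± 0.15 and -0.89 ± 0.14), and Sphkap, an anchor of protein kinase A (-0.60 ± 0.18 and -1.31 ± 0.18). The other 6 windows lower in both were those of Nbeal1, Vwc2l, Catip, Irs1 and the overlapping pair Pecr and Tmem169. Higher in CeA in SOM+ nuclei and lower in bulk nuclei were 4930487H11Rik (0.79 ± 0.17 and -1.07 ± 0.14), the receptor Gpr1 (1.08 ± 0.17 and -0.51 ± 0.15) and the adaptor subunit Ap1s3 (0.45 ± 0.20 and -0.55 ± 0.17). Across the 251 members, which are not independent and share libraries, Pearson's r between the 2 differences was 0.18 and the Spearman correlation 0.16. Genes named from these classes were chosen after their values were seen.

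**Figure D5:**
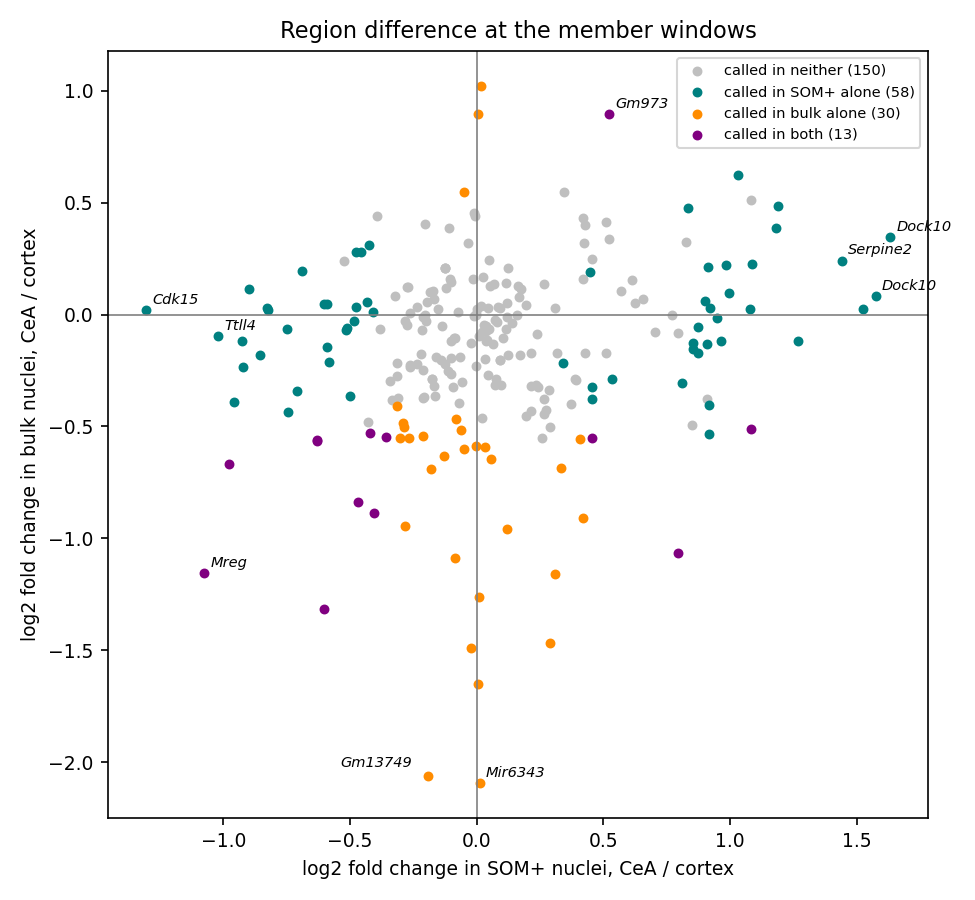
Log2 difference of CeA over cortex in SOM+ nuclei (horizontal axis) and in bulk nuclei (vertical axis), with a point per member coloured by the comparison in which it was called. Of the 43 members called in bulk nuclei, 39 lie below 0 on the vertical axis, and the cloud shows little slope, with r of 0.18.

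Fear conditioning, a comparison with no difference in Erbb4, moved no member past the threshold in SOM+ nuclei by edgeR or DESeq2 (edgeR background 0% of 25157 windows). At an unadjusted p under 0.05 there were 6 members (2.39%, background 2.11%). The smallest p was that of Fev, the factor of serotonin neurons, with 3.72 and 3.28 CPM in CeA fear and 5.22 and 6.38 CPM in cortex fear libraries, against 6.30 and 7.55 CPM in CeA control and 9.03 and 9.20 CPM in cortex control libraries. Every fear library lay below every control library of its region, with an average log2 difference of -0.79 ± 0.28 (adjusted p of 0.9998 by edgeR). Prkag3 had -0.66 ± 0.24, which rested on CeA fear 1 at 0.930 CPM and ranged from -1.76 to -0.12 over the alternatives run, and Aox2 had 0.87 ± 0.37.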

How the data were processed

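ATAC-seq promoter counts of 18 libraries were used, as the authors deposited them: raw read counts in windows within 1 kb of transcription start sites, in mm9 coordinates. Tools named in the submitters' processing notes include Trimmomatic 0.32, Picard 1.88, Bowtie2, MACS2 and bcl2fastq 2.16.0.10. No source used here gives the read counter, the Tn5 offset or how duplicates were treated, which could each change the counts.

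Repeated rows of the same window (663 of 26728) were left out, which left 26065. Windows passing filterByExpr (minimum count 10, total 15) were fitted with edgeR 4.0.16 (TMM, quasi-likelihood) in R 4.3.3, in 3 fits: 10 bulk libraries with labelled sex as a term (25196 windows), 8 SOM+ libraries (25157) and all 18 libraries (25246). In the bulk fit the sex term rests on WT 1 against WT 2, so the averaged KO difference is in effect taken against WT 2. Benjamini-Hochberg adjustment ran over all windows and 0.05 was the threshold. Alternatives included DESeq2 1.42.0, limma 3.58.1 with cyclic loess (scaling and test changed together, prior count 2 for its log values) and each region's libraries alone without a sex term. Leaving out KO 2 and WT 1 of both regions also dropped the sex term of the bulk fit, as all bulk libraries left were labelled male. DESeq2 changed the scaling, the dispersion fit and the test together, and each region alone changed both the libraries and the sex term. Leaving out 1 WT library also left the sex term of the bulk fit resting on the WT libraries of the other region. The remaining alternatives changed 1 choice each. The fits were tested on simulated counts with a constant spread, no outlying library and no wrong sex label, so that test does not cover these features of the real libraries.

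The members, role groups and marker lists were chosen with earlier results of these data known. Genes were named by a rule: members called between KO and WT, or the 3 with the smallest p, the 5 nearest genes on each side, the 3 highest in each role group, and, in other comparisons, the 4 with the smallest p per direction among those called, or 3 where under 3 were called. Others are said to be chosen after seeing values, and a few genes that the rule names are not reported here. Motifs were searched in RefSeq promoters of GRCm38.p6. No interval is given for levels, and SEs and SDs cover the libraries at hand.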

Additional observations from a re-analysis of the deposited data

How the results depend on the processing

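None of the values given for named genes that passed the test changed direction under the alternatives run for them. Leaving out 1 library at a time gave 0 to 1 members called between KO and WT in CeA, 0 to 8 in cortex and 0 to 7 on average. These calls were made only without cortex KO 3. Between the regions in bulk nuclei it gave 17 (6.77%, background 5.6%) to 63 members (25.1%, background 27.8%). That count was 14 (5.58%, background 2.56%) without KO 2 and WT 1 of both regions and 27 (10.8%, background 7.25%) without KO 2, both chosen after seeing the data. The replicate numbers were not taken to pair the samples in the main fits. Deviations from the group means correlated at -0.19, 0.26 and 0.02 between KO libraries of the same number across regions, at 0.38 for WT and at 0.13 for SOM+ control. Y-linked counts went against the labels at the same numbers in both regions. These values do not decide whether the same mice gave both regions. With a replicate block, 0 members were called between KO and WT and in the fear comparison. Between regions 44 were called in bulk nuclei (17.5%, background 17%) and 73 in SOM+ nuclei (29.1%, background 50.2%). Between SOM+ control and bulk WT 147 were called (58.6%, background 61.8%). Each region had 2 WT libraries, and what limits the KO comparison was not tested.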
